A study of Mus musculus with 24 samples.

Results

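The hepatokines of fasting and mitochondrial stress were 9 genes that encode proteins secreted by the liver, Fgf21, Gdf15, Angptl4, Angptl6, Angptl8, Inhbe, Fst, Lect2 and Enho. They were taken by their symbols from the 54532 genes of the count table, and each symbol matched 1 gene. Their mRNA was followed by RNA-seq in the livers of 24 male C57/BL6J mice aged 8 to 10 weeks, all fasted for 24 h before the liver was frozen. The study asked what the small GTPase Rab30 does in the fasted liver, with and without mitochondrial oxidation of long chain fatty acids. There were 6 genotypes with 4 livers each. Rab30KO mice lacked exon 4 of Rab30 in every tissue, and Rab30 Ctrl were their wildtype littermates. In Rab30L-/- mice the floxed exon 4 of Rab30 was deleted by a Cre transgene under the albumin promoter, which acts in hepatocytes. Cpt2L-/- mice had lost Cpt2, which the mitochondrial oxidation of long chain fatty acids needs, through the same Cre. DKO mice had lost both genes in the same way, and ff;ff mice, littermates of the DKO, carried both floxed genes without Cre. The ff;ff livers were therefore littermate controls for DKO only, although Rab30L-/- and Cpt2L-/- were compared with them too.

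Hepatokines are hormones and signalling proteins by which the liver acts on other tissues. Fasting raises fatty acid supply to the liver, where the nuclear receptor Ppara switches on oxidation genes and also Fgf21 and Angptl4. Failing mitochondria call on another route, the integrated stress response, in which the transcription factor Atf4 drives amino acid genes and the stress hormones Fgf21 and Gdf15. Other members answer to feeding and nutrients, among them Angptl8 and Enho, the gene of the peptide adropin. Inhbe and Fst belong to the activin system, as an activin chain and an activin inhibitor.

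Total counts per library ran from 11801027 to 24497738. The whole-gene counts of the deleted genes followed the genotypes in some comparisons and not in others, so each library is described by its label. The paper checked the genotypes by other measures. It reports that Rab30KO mice had no Rab30 mRNA or protein. For the liver knockouts it shows qRT-PCR of Rab30 and Cpt2 and immunoblots of Rab30. It also reports that loss of Cpt2 raises Rab30 in the fasted liver. Rab30 stood at 161 ± 57.9 CPM (a gene's share of its library's counts on the usual CPM scale, with TMM factors; mean ± SD, n = 4) in the libraries labelled DKO and at 147 ± 29.99 CPM in those labelled Cpt2L-/-, against 36.6 ± 9.55 CPM in ff;ff. Cpt2 stood at 127 ± 30.2 CPM in Cpt2L-/- and 132 ± 5.15 CPM in ff;ff, with a log2 fold change of -0.073 (SE 0.16, adjusted p = 0.788). Cpt2 was lower in DKO than in Rab30L-/-, at -1.07 (SE 0.15, adjusted p = 4.5e-04), without overlap, and had -0.34 (SE 0.13, adjusted p = 0.0911) against ff;ff, also without overlap. Cpt2 had 0.73 (SE 0.15, adjusted p = 0.0772) in Rab30L-/- against ff;ff, again without overlap. Rab30 had -1.10 (SE 0.29, adjusted p = 0.174) in Rab30L-/- against ff;ff and -0.34 (SE 0.51, adjusted p = 0.9999) in Rab30KO against Rab30 Ctrl, where the ranges overlapped. Rab30 was higher in DKO than in Rab30L-/-, at 3.23 (SE 0.36, adjusted p = 3.3e-04). For Rab30, 1 exon was deleted, and a count over the whole gene does not show whether that exon is missing. All 5 hepatocyte markers were present in every library, and Alb alone took 3.16 to 9.78% of the counts. The summed hepatocyte markers were at 42615 to 51159 CPM in Cpt2L-/-, 56357 to 68220.5 in DKO, 72445 to 86538 in Rab30L-/- and 87549.9 to 115896 in ff;ff. The part of this difference in the hepatokine results was not tested, and in whole liver fewer cells of a type and less RNA per cell cannot be told apart.

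Promoter sequences from RefSeq (build GRCm38.p6, 250 bases before the transcription start) were found for 6 of the 9 members, Fgf21, Gdf15, Angptl6, Angptl8, Inhbe and Lect2. They were searched on both strands for 4 sequences. These were TGATGCAA, the composite site to which Atf4 and its partners bind at amino acid response genes, the cyclic AMP response element TGACGTCA, the E-box CACGTG, and the DR1 element of Ppara as an exact repeat (AGGTCA, 1 base, AGGTCA). TGATGCAA was in the windows of 3 members, Fgf21, Inhbe and Angptl8. Of all 32851 promoter windows of this length, 260 (0.791%) held it. The 30 bases around each match are shown 5′ to 3′ along the gene, with the site in capitals. In Fgf21 and Inhbe it reads as its reverse complement. The Inhbe site lies before the RefSeq start and within the longer first exon that GENCODE gives this gene, and the Angptl8 site lies in an intron of Dock6.
Fgf21 (chr7:45615611-45615640, minus strand): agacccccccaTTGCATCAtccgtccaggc
Inhbe (chr10:127352011-127352040, minus strand): catcctctttcTTGCATCAtgcatgtccac
Angptl8 (chr9:21835369-21835398, plus strand): agccatcagtcTGATGCAAtggctgagcct

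The whole upstream windows of the pair of stress hormones that rose most are shown next, with any matched site in capitals. The Fgf21 window held TGATGCAA as its reverse complement and, nearer the start, an E-box, which 6.02% of all windows held. The Gdf15 window at the outer of its RefSeq starts held none of the 4 sequences. The window at the inner start, inside the gene, held an E-box.
Fgf21 (chr7:45615491-45615740, minus strand): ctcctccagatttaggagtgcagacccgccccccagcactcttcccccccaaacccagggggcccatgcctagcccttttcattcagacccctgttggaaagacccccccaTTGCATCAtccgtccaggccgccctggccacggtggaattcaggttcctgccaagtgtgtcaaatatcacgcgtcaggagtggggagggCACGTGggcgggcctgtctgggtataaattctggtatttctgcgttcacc
Gdf15 (chr8:70632457-70632706, minus strand): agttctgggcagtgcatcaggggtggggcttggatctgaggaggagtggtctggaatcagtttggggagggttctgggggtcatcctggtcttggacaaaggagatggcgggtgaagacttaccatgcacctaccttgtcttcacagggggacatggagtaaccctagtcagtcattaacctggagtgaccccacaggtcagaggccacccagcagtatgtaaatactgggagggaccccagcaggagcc

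No member window held the cyclic AMP response element (1.55% of all windows) or the exact DR1 element (0.0335%), which says only that these letters are not in these windows. Of 67 genes tested that held TGATGCAA in any window, 10 (14.9%) were higher and 11 (16.4%) lower in Cpt2L-/- than in ff;ff, where 12.3% and 11.7% of all 9802 tested genes with a window were. In DKO against ff;ff, 9 of 69 (13%) were higher and 5 (7.25%) lower, beside 8.12% and 8.51%. In DKO against Rab30L-/-, 14 of 65 (21.5%) were higher and 13 (20%) lower, beside 15.6% and 16.1%.

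Levels were compared between genes per length, on the deposited FPKM scale. In ff;ff livers Angptl4 was the most abundant member at 113 ± 32.4 FPKM (mean ± SD, n = 4), and its 4 libraries lay above every library of the next member. Lect2 at 25.3 ± 8.27 and Enho at 20.99 ± 8.27 FPKM followed, and their ranges overlapped. Fgf21 had rank 5 at 9.16 ± 7.47 FPKM and Gdf15 rank 9 at 3.03 ± 1.78 FPKM. In Cpt2L-/- livers Angptl4 was still at rank 1 with 83.6 ± 4.09 FPKM, but Fgf21 had rank 2 at 61.6 ± 19.97, Inhbe rank 3 at 47.4 ± 10.2 and Gdf15 rank 4 at 27.9 ± 9.700 FPKM. The FPKM of Fgf21, Inhbe and Gdf15 overlapped from each neighbour to the next, and all 4 libraries of Angptl4 lay above those of Fgf21. Enho dropped from rank 3 to rank 8 at 1.78 ± 0.911 FPKM, and Fst had rank 9 at 0.80 ± 0.227. In DKO livers Angptl4, Fgf21, Gdf15 and Inhbe again held ranks 1 to 4, at 83.7 ± 13.6, 64.1 ± 26.5, 26.7 ± 7.55 and 25.3 ± 7.53 FPKM, each overlapping the next. The FPKM of Inhbe divides its counts by 5319 bases, which include the long first exon named above.

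**Figure D1:**
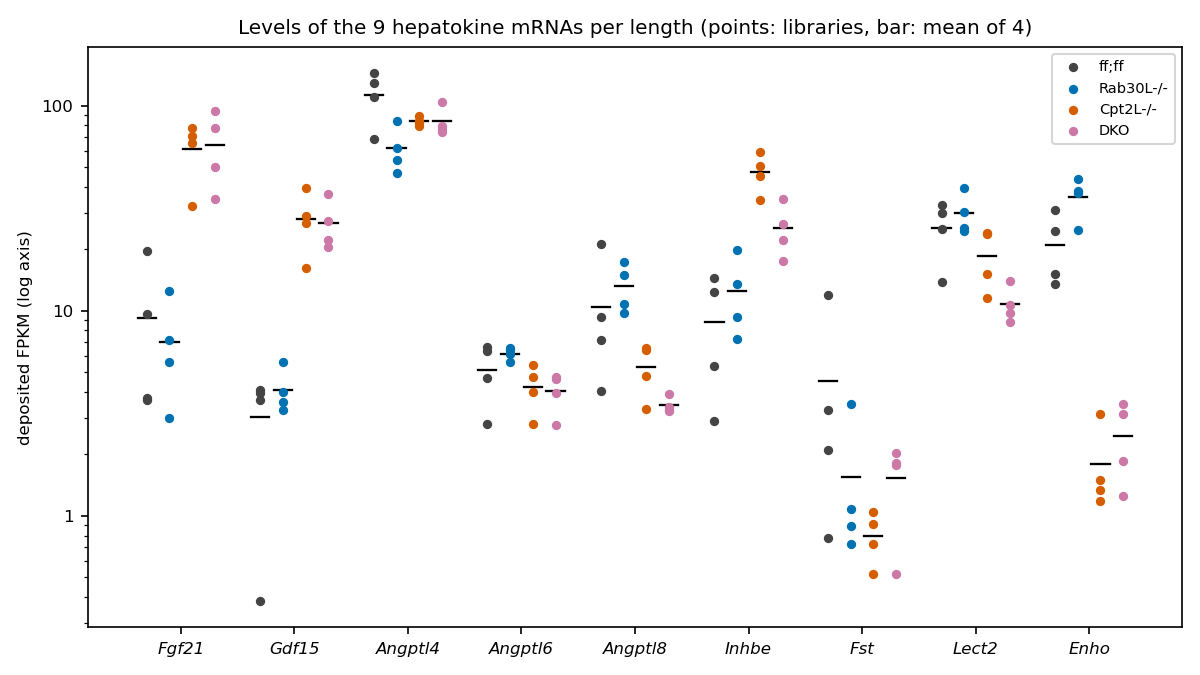
Deposited FPKM (log axis) of the 9 hepatokine mRNAs in the 4 groups that carry floxed alleles; each point is 1 liver library and each bar the mean of 4. Fgf21, Gdf15 and Inhbe lie higher and Enho lower in Cpt2L-/- and DKO, while Angptl4 is near the top in all 4 groups.

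Fgf21 (ENSMUSG00000030827, chromosome 7 from 45613886 to 45615490, minus strand, GRCm38 as all positions here) encodes the fasting hormone that signals through FGF receptors with the co-receptor Klb. Its 4 libraries were at 30.4, 72.2, 67.4 and 61.7 CPM in Cpt2L-/- and at 46.4, 32.5, 72.9 and 87.5 CPM in DKO. In ff;ff they were at 3.49, 18.2, 3.42 and 9.14 CPM and in Rab30L-/- at 6.72, 5.28, 11.99 and 2.81 CPM. In Rab30 Ctrl they were at 5.62, 7.01, 1.77 and 0.949 CPM and in Rab30KO at 7.41, 5.39, 3.11 and 2.26 CPM. All 8 libraries without Cpt2 by label lay above all 16 others, at 30.4 CPM or more against 18.2 CPM or less. Within the groups with Cpt2 the spread was wide, up to 7.39-fold among the Rab30 Ctrl livers and 5.31-fold among the ff;ff livers. From highest to lowest the means were in the order DKO, Cpt2L-/-, ff;ff, Rab30L-/-, Rab30KO and Rab30 Ctrl, and only the step from Cpt2L-/- to ff;ff separated neighbours without overlap.

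Gdf15 (ENSMUSG00000038508, chromosome 8 from 70629393 to 70632456, minus strand), the stress hormone that acts on the hindbrain through Gfral and Ret, followed the same pattern. The Cpt2L-/- livers were at 48.5, 52.7, 29.8 and 72.9 CPM and the DKO livers at 39.8, 49.3, 67.5 and 37.1 CPM. In ff;ff the 4 values were 0.699, 7.45, 6.62 and 7.300 CPM and in Rab30L-/- 10.2, 6.02, 7.55 and 6.53 CPM. The Rab30 Ctrl livers were at 1.68, 3.61, 4.24 and 1.695 CPM, from 29, 73, 67 and 25 counts, and the Rab30KO livers at 0.906, 0.607, 0.794 and 0.776 CPM, from 11, 8, 11 and 12 counts. The 8 libraries labelled as without Cpt2 again lay above all others, at 29.8 CPM or more against 10.2 CPM or less. Replicate 1 of ff;ff, with 8 counts, lay far below the other ff;ff livers. Neighbours in the order of the means overlapped except between DKO and Rab30L-/- and between Rab30 Ctrl and Rab30KO, the lowest group.

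Inhbe (ENSMUSG00000047492, chromosome 10 from 127348857 to 127354411, minus strand) encodes the inhibin beta E chain, which pairs into activin E, a liver signal to fat tissue. Levels were 182, 263, 241 and 312 CPM in Cpt2L-/- and 183, 137, 116 and 91.3 CPM in DKO. The ff;ff libraries were at 28.04, 74.9, 14.99 and 65.4 CPM and the Rab30L-/- libraries at 48.7, 71.6, 107 and 38.3 CPM. Rab30 Ctrl libraries were at 29.3, 46.5, 48.3 and 37.9 CPM and Rab30KO libraries at 27.5, 41.04, 68.2 and 34.7 CPM. Cpt2L-/- was the highest group and DKO the next, and the pair touched only at the lowest Cpt2L-/- and the highest DKO library. Rab30L-/- replicate 3 reached into the DKO range, and the other 15 libraries of the 4 groups with Cpt2 stayed below it.

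Fst (ENSMUSG00000021765, chromosome 13 from 114452290 to 114458951, minus strand) encodes follistatin, which binds and blocks activins. Fst stood at 3.27, 4.09, 2.396 and 4.75 CPM in Cpt2L-/- and 7.89, 9.098, 8.13 and 2.35 CPM in DKO. It stood at 14.8, 9.34, 53.4 and 3.55 CPM in ff;ff and 4.001, 3.299, 16.4 and 4.86 CPM in Rab30L-/-. The Rab30 Ctrl values were 12.3, 9.43, 4.68 and 10.1 CPM and the Rab30KO values 6.92, 6.296, 4.33 and 6.79 CPM. The ff;ff livers were uneven, 15.02-fold apart from the lowest (replicate 4) to the highest (replicate 3), and neighbouring groups overlapped at every step. It shares 115 of its 4589 exonic bases with the antisense gene Gm47040, and without stated strand their reads cannot be told apart there.

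Angptl4 (ENSMUSG00000002289, chromosome 17 from 33773750 to 33781575, minus strand) encodes the fasting inhibitor of lipoprotein lipase and is a classical target of Ppara. Its 4 ff;ff values were 222, 414, 459.9 and 361 CPM and those of Rab30L-/- 270.0, 153, 207 and 176 CPM. Angptl4 was at 270.4, 257, 269 and 291 CPM in Cpt2L-/- and 239.6, 248, 335 and 256 CPM in DKO. Rab30 Ctrl was at 237, 264, 130.0 and 173 CPM and Rab30KO at 247, 190.2, 212 and 212 CPM. The ff;ff group had the highest mean, with replicate 1 apart at the level of the Rab30 groups, and no neighbouring groups separated. The Cpt2L-/- livers were the most even of the 6 groups, with 1.13-fold between the lowest and the highest.

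Angptl8 (ENSMUSG00000047822, chromosome 9 from 21835510 to 21837347, plus strand), a feeding-induced regulator of lipoprotein lipase, lies within Dock6, a gene on the other strand with which it shares no exonic base. Its libraries were at 2.86, 2.77, 3.32 and 2.77 CPM in DKO and 2.82, 5.602, 4.14 and 5.495 CPM in Cpt2L-/-. They were at 8.23, 9.24, 15.1 and 12.8 CPM in Rab30L-/- and 6.11, 7.86, 3.42 and 18.1 CPM in ff;ff. In Rab30 Ctrl they were at 3.77, 23.9, 16.6 and 13.7 CPM and in Rab30KO at 3.71, 13.7, 8.16 and 3.88 CPM. The DKO livers were the lowest and the most even, all between 2.77 and 3.32 CPM. Angptl6 (ENSMUSG00000038742, chromosome 9 from 20873808 to 20879727, minus strand), a secreted relative linked to energy expenditure, was low everywhere. Angptl6 was at 5.22, 9.73, 6.32 and 20.9 CPM in Rab30 Ctrl, and in Rab30KO at 9.14, 10.01, 10.1 and 3.49 CPM. It was at 4.37, 9.82, 10.2 and 7.36 CPM in ff;ff and 8.68, 10.1, 10.5 and 9.57 CPM in Rab30L-/-. In Cpt2L-/- it was at 7.37, 4.34, 6.35 and 8.49 CPM and in DKO at 7.19, 7.36, 4.29 and 6.19 CPM. No neighbouring groups separated for either gene. Angptl6 shares 265 of its 1582 exonic bases with A230050P20Rik on the other strand, so its counts are uncertain.

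Lect2 (ENSMUSG00000021539, chromosome 13 from 56542464 to 56548502, minus strand) encodes a hepatocyte protein first described as a neutrophil attractant. Its libraries were at 7.89, 8.78, 9.63 and 12.7 CPM in DKO and 10.4, 21.7, 21.8 and 13.7 CPM in Cpt2L-/-. They were at 26.9, 29.3, 12.4 and 22.9 CPM in ff;ff and 22.04, 36.04, 28.2 and 22.9 CPM in Rab30L-/-. In Rab30 Ctrl they were at 41.5, 35.4, 64.1 and 32.9 CPM and in Rab30KO at 26.6, 38.7, 42.8 and 69.8 CPM. DKO was the lowest group and the whole-body Rab30 groups the highest, with overlap between all neighbours.

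Enho (ENSMUSG00000028445, chromosome 4 from 41638144 to 41640324, minus strand), which encodes the peptide adropin, was low in the libraries labelled as without Cpt2. Its libraries were at 1.86, 3.903, 1.49 and 1.69 CPM in Cpt2L-/- and 2.304, 1.55, 3.902 and 4.36 CPM in DKO. Enho stood at 30.4, 16.7, 18.6 and 39.2 CPM in ff;ff and 54.4, 48.1, 31.8 and 46.6 CPM in Rab30L-/-. Rab30 Ctrl libraries were at 30.4, 46.7, 37.5 and 52.96 CPM and Rab30KO libraries at 44.6, 31.7, 29.1 and 10.2 CPM. All 8 libraries labelled as without Cpt2 were at 4.36 CPM or less and all 16 others at 10.2 CPM or more. The ff;ff group and DKO were the only neighbours in the order of means without overlap. Enho shares 15 of its 1269 exonic bases with Dnaic1 on the other strand.

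**Figure D2:**
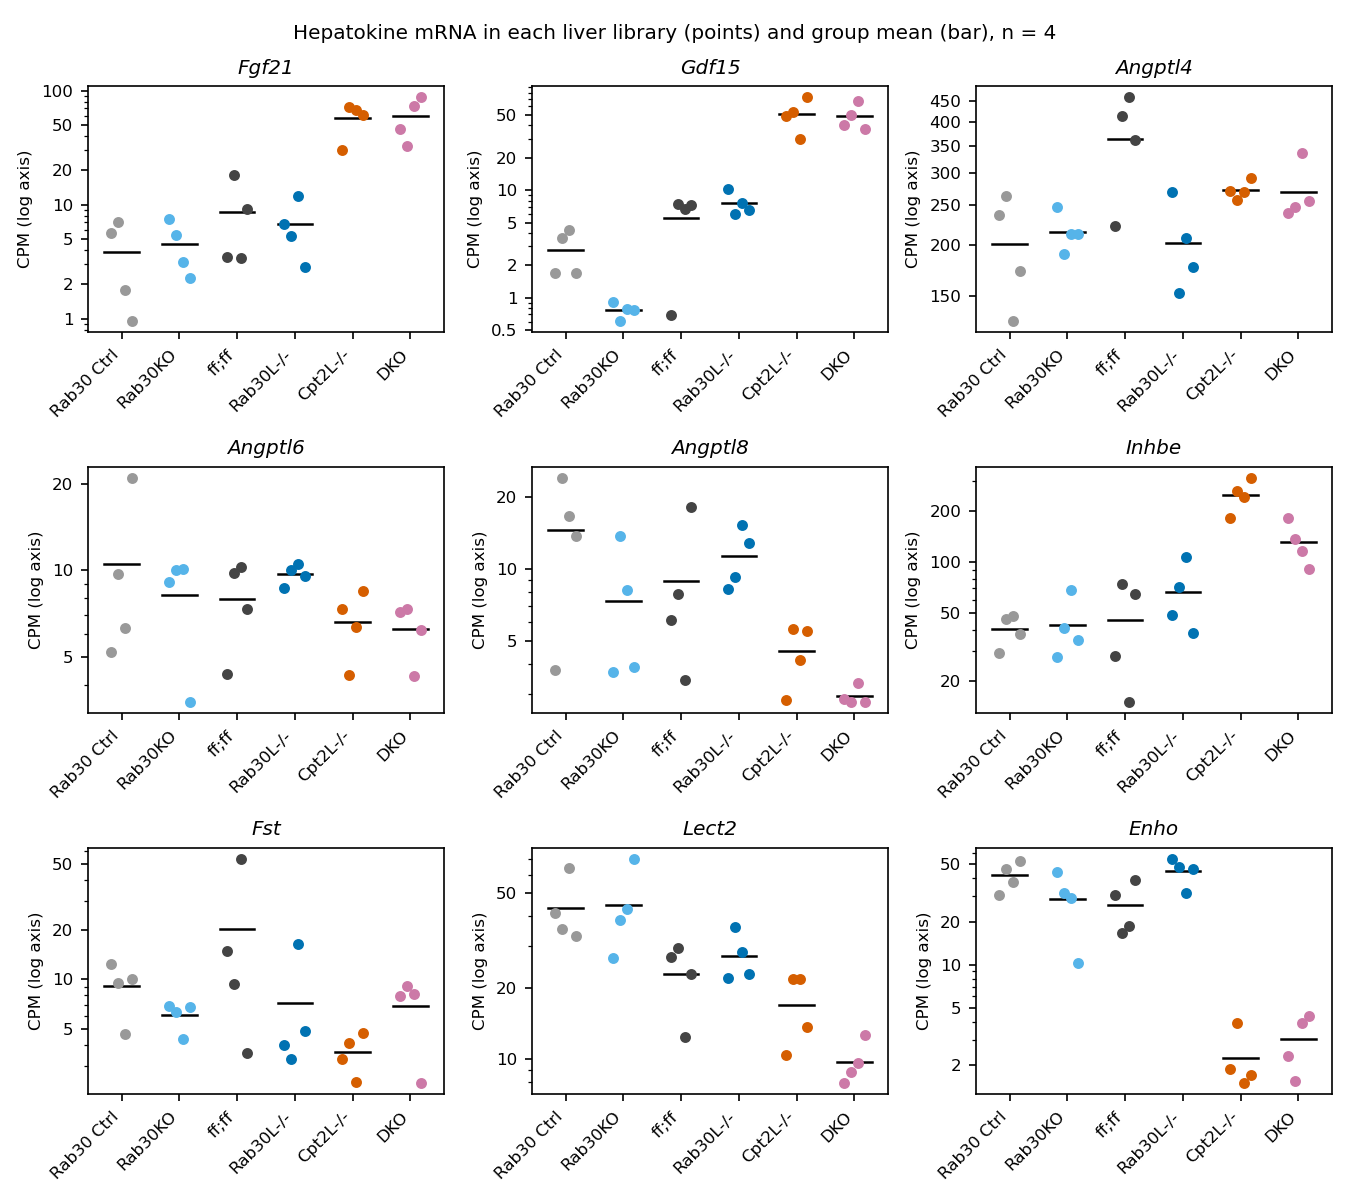
CPM (log axis) of each hepatokine mRNA, 1 panel a gene; each point is 1 liver library and each bar the mean of the 4 libraries of a genotype. Fgf21 and Gdf15 separate the 8 Cpt2L-/- and DKO libraries from the other 16 upward and Enho downward, while the remaining 6 genes overlap between these sets. How many of all genes separate these sets was not counted.

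Loss of Cpt2 alone was read from Cpt2L-/- against ff;ff. Among the 9 hepatokines, the stress hormones Fgf21 and Gdf15 and the activin chain gene Inhbe rose, and Enho fell. A gene was called where edgeR's quasi-likelihood test gave a Benjamini-Hochberg adjusted p under 0.05 and the change was 1.2-fold or more. In this comparison 3155 of 13270 genes tested were called (23.8%), with 11.9% higher and 11.9% lower. Of the 9 members, 3 were called higher and 1 lower. Fgf21 had a log2 fold change of 2.73 (SE 0.57, adjusted p = 0.0108), a 6.62-fold rise with a 95% interval of 1.40 to 4.06 on the log2 scale. Gdf15 had 3.17 (SE 0.56, adjusted p = 0.00439), a 9.03-fold rise, and Inhbe 2.43 (SE 0.48, adjusted p = 0.00708), a 5.402-fold rise. Enho had -3.55 (SE 0.36, adjusted p = 4.0e-05), to 0.0852 of its ff;ff level. With each library left out in turn, Fgf21 ranged from 2.46 to 3.41, Gdf15 from 2.83 to 3.36, Inhbe from 2.14 to 2.78 and Enho from -3.98 to -3.30, and all 4 were called each time. The highest Fgf21 value came without ff;ff replicate 2, at 3.41 (adjusted p = 4.1e-04).

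The other 5 members did not pass in Cpt2L-/-. Fst had a log2 fold change of -2.49 (SE 0.82, adjusted p = 0.068), and it passed at -1.34 (adjusted p = 0.033) without ff;ff replicate 3, at -2.85 (adjusted p = 0.0108) without ff;ff replicate 4, by DESeq2's Wald test (adjusted p = 0.00828) and in the fit over all 24 libraries (adjusted p = 0.0086). By limma-voom Fst was -1.12 (adjusted p = 0.147) and did not pass. Angptl8 had -0.98 (SE 0.44, adjusted p = 0.131) and passed at -1.25 (adjusted p = 0.0234) without ff;ff replicate 3, and it was -0.38 (adjusted p = 0.465) without ff;ff replicate 4. Angptl4, the abundant lipase inhibitor, had -0.43 (SE 0.20, adjusted p = 0.135) and passed at -0.61 (adjusted p = 0.00834) without ff;ff replicate 1 and by limma-voom at -0.46 (adjusted p = 0.0318). Lect2 had -0.45 (SE 0.29, adjusted p = 0.284) and Angptl6 -0.28 (SE 0.28, adjusted p = 0.52). With each library left out in turn, Lect2 ranged from -0.66 to -0.28 and Angptl6 from -0.47 to -0.13, and neither passed. The median over the 9 members was -0.43 on the log2 scale, beside -0.0035 over all genes tested.

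The same loss on a background without hepatocyte Rab30 was read from DKO against Rab30L-/-. Fgf21, Gdf15 and Inhbe were again higher, and Enho, Angptl8, Lect2 and Angptl6 were lower. This comparison called 30.7% of all genes, 14.9% higher and 15.8% lower, and 7 of the 9 members, 3 higher and 4 lower. Fgf21 had a log2 fold change of 3.13 (SE 0.47, adjusted p = 0.00208), Gdf15 of 2.68 (SE 0.23, adjusted p = 3.6e-05) and Enho of -3.88 (SE 0.31, adjusted p = 3.6e-05). Angptl8 had -1.95 (SE 0.22, adjusted p = 1.3e-04), to 0.259 of its Rab30L-/- level, and Lect2 -1.48 (SE 0.19, adjusted p = 2.5e-04), to 0.359. All 5 were called with any library left out.

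The rise of Inhbe and the fall of Angptl6 in DKO against Rab30L-/- were less firm. Inhbe had a log2 fold change of 0.998 (SE 0.32, adjusted p = 0.0439) with overlapping ranges, and its call was lost without any 1 of Rab30L-/- replicates 1, 2 and 4 or DKO replicates 1, 2 and 3, at values of 0.88, 1.04, 0.81, 0.81, 0.98 and 1.06 (adjusted p = 0.0991, 0.0848, 0.0797, 0.102, 0.088 and 0.0693). Angptl6 had -0.63 (SE 0.19, adjusted p = 0.0292) without overlap, and its call was lost without any 1 of Rab30L-/- replicates 2, 3 and 4 or DKO replicates 3 and 4 (adjusted p = 0.067, 0.0609, 0.0613, 0.0643 and 0.0601). The overlapping gene A230050P20Rik was lower in the same comparison too, with a log2 fold change of -0.69, and its part in the Angptl6 count was not tested. Angptl4 had 0.42 (SE 0.19, adjusted p = 0.112) and passed at 0.60 (adjusted p = 0.0205) without Rab30L-/- replicate 1 and by limma-voom at 0.47 (adjusted p = 0.0491). Fst had -0.077 (SE 0.59, adjusted p = 0.939). The Kupffer cell markers moved beside these genes, with 5 of 6 called lower in DKO and sums of 109 to 129 CPM against 177 to 529.9 CPM. Of the hepatocyte markers 2 of 5 and of the bile duct markers 1 of 3 tested were also called lower in DKO. Of all genes 15.8% were. The part of these markers in the results was not tested.

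Loss of both genes was read from DKO against ff;ff, the pair of littermate groups. Fgf21 and Gdf15 were higher and Angptl8, Lect2 and Enho lower. The comparison called 16.1% of all genes, 7.87% higher and 8.24% lower, and 5 of the 9 members. Fgf21 had a log2 fold change of 2.78 (SE 0.60, adjusted p = 0.0183), which became 2.67 (adjusted p = 0.0527) without DKO replicate 3 and 3.47 (adjusted p = 0.00239) without ff;ff replicate 2. Gdf15 had 3.10 (SE 0.53, adjusted p = 0.00566), Enho -3.10 (SE 0.36, adjusted p = 3.5e-04) and Lect2 -1.24 (SE 0.25, adjusted p = 0.00621), and each was called with any library left out. The Lect2 ranges overlapped between the groups. Angptl8 had -1.60 (SE 0.42, adjusted p = 0.0242), with its groups apart but only narrowly, since the highest DKO library was at 3.32 CPM and the lowest ff;ff library at 3.42 CPM. Its call was lost without DKO replicate 1, 2 or 4 (adjusted p = 0.0642, 0.0597 and 0.0675) and without ff;ff replicate 4, at -0.998 (adjusted p = 0.0604). Inhbe did not pass at 1.52 (SE 0.48, adjusted p = 0.0682), although its ranges did not overlap. It passed by DESeq2's Wald test (adjusted p = 0.0256), by limma-voom (adjusted p = 0.0167), in the fit over all 24 libraries (adjusted p = 0.0128) and, at 1.87 (adjusted p = 0.039), without ff;ff replicate 2. Angptl4 had -0.44 (SE 0.22, adjusted p = 0.195) and passed at -0.62 (adjusted p = 0.0249) without ff;ff replicate 1 and by limma-voom at -0.56 (adjusted p = 0.0293). Fst had -1.58 (SE 0.85, adjusted p = 0.268), which became -0.43 (adjusted p = 0.669) without ff;ff replicate 3 and -0.34 (adjusted p = 0.707) by limma-voom. Angptl6 had -0.36 (SE 0.28, adjusted p = 0.435). Beside these genes, 2 of 6 Kupffer cell markers, 2 of 5 hepatocyte markers and 1 of 5 bile duct markers were called lower in DKO. Of all genes 8.24% were. In edgeR's test 5 of the 6 Kupffer cell markers had an unadjusted p under 0.05, beside 29.7% of all genes. The Kupffer cell sums were 109 to 129 CPM against 129 to 244 CPM in ff;ff, and their part in the results was not tested. The comparisons with ff;ff share its 4 libraries, and the comparisons with DKO share the 4 DKO libraries.

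**Figure D3:**
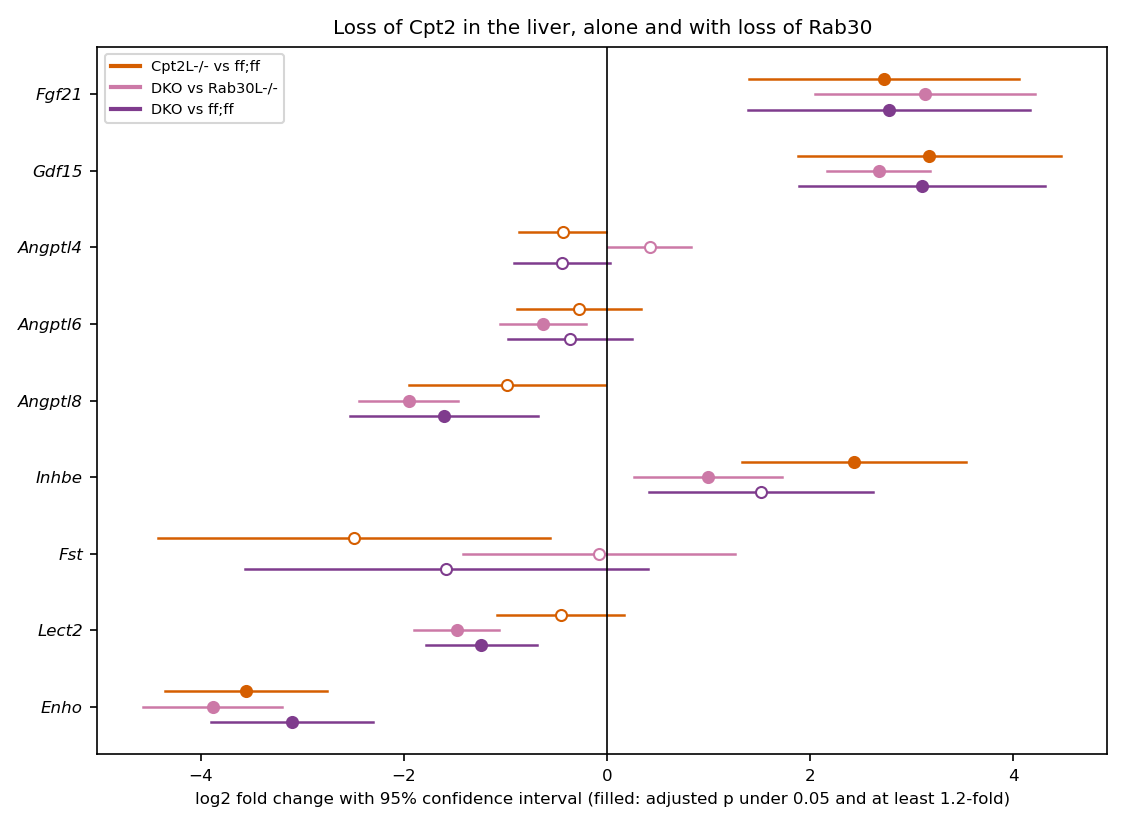
Log2 fold changes of the 9 hepatokine mRNAs with 95% confidence intervals in the 3 comparisons that add loss of Cpt2, filled where the gene was called. Fgf21, Gdf15 and Enho are filled in all 3, and Angptl4 and Fst in none. DKO against ff;ff shares libraries with each of the other comparisons.

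Loss of Rab30 was read first in whole-body knockouts, Rab30KO against Rab30 Ctrl. No member was called by edgeR, DESeq2's Wald test or limma-voom, where edgeR called 3 of 13656 genes (0.022%). At an unadjusted p under 0.05 in edgeR's test, 1 of the 9 members passed, beside 2.21% of all genes. It was Gdf15, with a log2 fold change of -1.86 (SE 0.41, adjusted p = 0.862), and its Rab30KO and Rab30 Ctrl libraries did not overlap, at 8 to 12 against 25 to 73 counts. The other 8 members overlapped, with log2 fold changes from -0.98 for Angptl8 to 0.22 for Fgf21. How many of all genes did not overlap between these groups was not counted. Angptl8 lay between -1.47 (adjusted p = 0.997) without Rab30KO replicate 2 and -0.63 (adjusted p = 0.9999) without Rab30 Ctrl replicate 2. The 95% intervals were narrowest for Angptl4, -0.37 to 0.56, and widest for Angptl8, -2.30 to 0.35, and Fgf21, -1.09 to 1.53.

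Hepatocyte loss of Rab30 with Cpt2 present was read from Rab30L-/- against ff;ff, where 0.479% of all genes and none of the 9 members were called. At an unadjusted p under 0.05, 2 of the 9 members passed, Angptl4 and Enho, beside 11.2% of all genes. Angptl4 had a log2 fold change of -0.86 (SE 0.24, adjusted p = 0.189) with overlapping ranges, and DESeq2's Wald test and limma-voom called it, at -0.87 (adjusted p = 0.0303) and -1.03 (adjusted p = 0.0366). Enho had 0.79 (SE 0.27, adjusted p = 0.295). Fst had -1.49 (SE 0.92, adjusted p = 0.594), which became -0.35 (adjusted p = 0.878) without ff;ff replicate 3, -2.31 (adjusted p = 0.481) without Rab30L-/- replicate 3 and -0.65 (adjusted p = 0.656) by limma-voom. The other 6 members lay between -0.37 for Fgf21 and 0.52 for Inhbe, and their order was not stable. Inhbe lay between 0.20 (adjusted p = 0.945) without Rab30L-/- replicate 3 and 0.87 (adjusted p = 0.678) without ff;ff replicate 2, and by limma-voom it was 0.013 (adjusted p = 0.993). Angptl8 had 0.35 (SE 0.43, adjusted p = 0.821) and was 0.95 (adjusted p = 0.311) without ff;ff replicate 4. Gdf15 had 0.43 (SE 0.51, adjusted p = 0.81) and was 0.077 (adjusted p = 0.911) without ff;ff replicate 1.

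Hepatocyte loss of Rab30 with Cpt2 also lost was read from DKO against Cpt2L-/-. Again no member was called, beside 2.71% of all genes. The stress hormones did not separate these groups, with log2 fold changes of 0.056 for Fgf21 (95% interval -0.70 to 0.82) and -0.066 for Gdf15 (-0.67 to 0.54), and the Angptl4 interval was -0.29 to 0.28. Inhbe was nearest to the threshold at -0.91 (SE 0.22, adjusted p = 0.0548), with a mean of 132 ± 38.8 CPM in DKO and 249.6 ± 53.98 CPM in Cpt2L-/-. It passed at -1.11 (adjusted p = 0.025) without DKO replicate 1, at -1.04 (adjusted p = 0.0443) without Cpt2L-/- replicate 1, and by DESeq2's Wald test (adjusted p = 0.00304) and limma-voom (adjusted p = 0.0344). Lect2 had -0.78 (SE 0.24, adjusted p = 0.104) and passed at -0.95 (adjusted p = 0.0471) without Cpt2L-/- replicate 1. Angptl8 had -0.62 (SE 0.24, adjusted p = 0.177) and Enho 0.45 (SE 0.39, adjusted p = 0.534), which was 0.22 (adjusted p = 0.794) without DKO replicate 4 and 0.87 (adjusted p = 0.236) without Cpt2L-/- replicate 2. Fst had 0.92 (SE 0.38, adjusted p = 0.197) and passed at 1.22 (adjusted p = 0.0254) without DKO replicate 4. At an unadjusted p under 0.05, 4 of the 9 members passed, Angptl8, Inhbe, Fst and Lect2, beside 21.7% of all genes.

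Whether loss of Rab30 acted differently with and without Cpt2 was tested by an interaction over 16 libraries, with the Rab30L-/- difference from ff;ff taken off the DKO difference from Cpt2L-/-. It called 4.06% of all genes and none of the 9 members, of which 4 had an unadjusted p under 0.05 by edgeR, beside 21.7% of all genes at that threshold. Angptl4 came nearest at 0.86 (SE 0.29, adjusted p = 0.0936), from a difference of -0.86 with Cpt2 and -0.00067 without it. Without ff;ff replicate 1 it was 1.04 (adjusted p = 0.0263) and it was 1.05 (adjusted p = 0.0375) without Rab30L-/- replicate 1, both past the threshold. Inhbe had -1.43 (SE 0.62, adjusted p = 0.197), Lect2 -1.02 (SE 0.38, adjusted p = 0.128) and Fst 2.41 (SE 1.06, adjusted p = 0.206). With 1 library left out, Fst lay between 1.27 (adjusted p = 0.37) without ff;ff replicate 3 and 3.23 (adjusted p = 0.115) without Rab30L-/- replicate 3, and by limma-voom it was 1.49 (adjusted p = 0.277). Inhbe was -0.88 (adjusted p = 0.28) by limma-voom. Angptl8 had -0.96 (SE 0.53, adjusted p = 0.305) and passed at -1.56 (adjusted p = 0.0413) without ff;ff replicate 4. For Fgf21, Gdf15, Angptl6 and Enho the intervals held 0, from -1.23 to 2.06 for Fgf21 to -1.09 to 0.40 for Angptl6. Fgf21 had 0.42, which turned to -0.27 (adjusted p = 0.857) without ff;ff replicate 2.

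**Figure D4:**
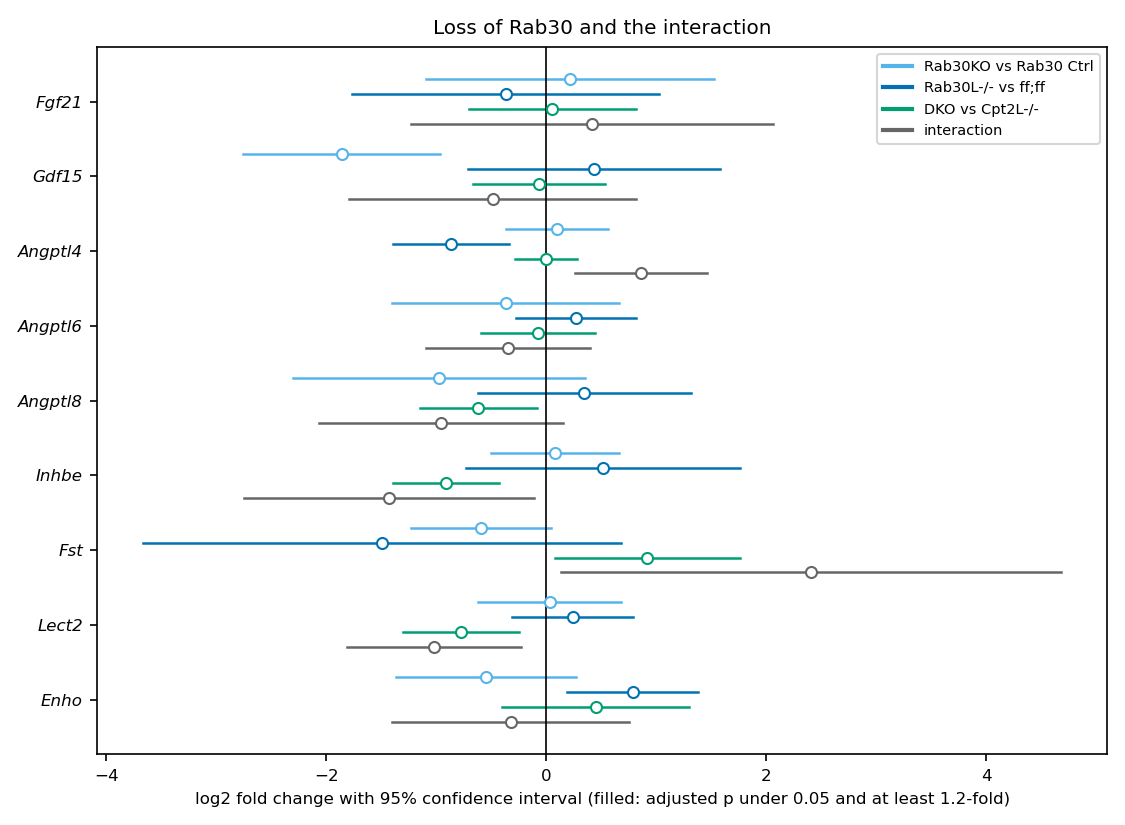
Log2 fold changes with 95% confidence intervals of the 9 hepatokine mRNAs in the 3 comparisons of Rab30 loss and in their interaction with Cpt2 loss. Filled points would mark called genes, and there are none.

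The receptors through which these hormones act were counted next, with 12 of 15 listed receptor and co-receptor genes tested. In Cpt2L-/- against ff;ff, 1 higher and 2 lower of the 12 were called where 23.8% of all genes were, with a median of -0.34 on the log2 scale. Fgfr4, the main FGF receptor of hepatocytes, was lower, at -1.05 (SE 0.19, adjusted p = 0.00139), and Fgfr1, the usual partner of Klb in Fgf21 signalling, was lower, at -1.66 (SE 0.38, adjusted p = 0.00823). Klb itself had -0.35 (SE 0.18, adjusted p = 0.182), Fgfr2 0.0083 (SE 0.23, adjusted p = 0.985) and Fgfr3 -0.42 (SE 0.18, adjusted p = 0.105). The activin receptor gene Acvr1b rose at 0.90 (SE 0.16, adjusted p = 0.00112). In DKO against Rab30L-/-, 1 higher and 5 lower were called where 30.7% of all genes were, with Klb at -0.85 (SE 0.26, adjusted p = 0.0328), Fgfr1 at -1.21, Fgfr3 at -1.06 and Fgfr4 at -1.07 among those that fell. In DKO against ff;ff the counts were 0 higher and 2 lower, beside 16.1% of all genes. In the 3 comparisons of Rab30 loss edgeR called 0 of the 12, with 0, 3 and 4 at an unadjusted p under 0.05 in Rab30KO, Rab30L-/- and DKO against Cpt2L-/-, where 2.21%, 11.2% and 21.7% of all genes were. The interaction called 1 higher and 1 lower beside 4.06% of all genes, Acvr2a at 0.88 and Acvr1b at -1.06.

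Of 10 genes of lipase control, 0 higher and 2 lower were called in Cpt2L-/- against ff;ff, where 23.8% of all genes were (median -0.28). Lipc, the hepatic lipase gene, was lower, at -1.15 (SE 0.14, adjusted p = 9.3e-05). Lpl, the enzyme that Angptl4 inhibits, had -0.26 (SE 0.23, adjusted p = 0.462). The calls among the 10 genes were 0 higher and 2 lower in DKO against ff;ff, 0 higher and 4 lower in DKO against Rab30L-/- and 1 higher and 0 lower in DKO against Cpt2L-/-, beside 16.1%, 30.7% and 2.71% of all genes. Of 8 tested genes of the activin and follistatin family, 1 higher and 0 lower were called in Cpt2L-/-, beside the same 23.8% (median 0.022). The gene that rose was Smad7, an intracellular brake on this signalling, at 0.87 (SE 0.28, adjusted p = 0.0396). Inhbc, the activin C chain gene next to Inhbe, had -0.22 (SE 0.23, adjusted p = 0.533) where Inhbe had 2.43. In DKO the calls were 0 higher and 0 lower against ff;ff, where 16.1% of all genes were called, with 0 at an unadjusted p under 0.05 by edgeR beside 29.7% of all genes, and 2 higher and 0 lower against Rab30L-/-, where 30.7% were. The genes that rose there were Inhbb, the activin B chain gene, at 1.91 (SE 0.62, adjusted p = 0.046), and Tgfbr3, a co-receptor that binds inhibins, at 0.39 (SE 0.14, adjusted p = 0.0487).

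Of the 16 transcriptional regulators, 3 higher and 3 lower were called in Cpt2L-/-, beside 23.8% of all genes (median -0.14). Atf3, a stress-induced factor, rose most at 2.67 (SE 0.48, adjusted p = 0.00225), and Ddit3, which encodes the stress factor Chop, rose at 0.82 (SE 0.21, adjusted p = 0.0123). A second row named Ddit3 held no counts. Atf4 mRNA had 0.43 (SE 0.18, adjusted p = 0.0952) and Ppara mRNA 0.73 (SE 0.27, adjusted p = 0.0691). Srebf1, the lipogenic factor, was lower, at -1.02 (SE 0.19, adjusted p = 0.00142) and Foxo1, a fasting factor, at -1.02 (SE 0.17, adjusted p = 6.8e-04). In DKO the counts were 2 higher and 2 lower against ff;ff and 2 higher and 4 lower against Rab30L-/-, beside 16.1% and 30.7% of all genes, with Atf3 at 3.78 and 4.36 and Ddit3 at 1.42 and 1.42.

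The genes that Ppara and Atf4 control were counted next. Of 12 Ppara target genes, 8 higher and 0 lower were called in Cpt2L-/-, 7 higher and 0 lower in DKO against ff;ff and 9 higher and 0 lower in DKO against Rab30L-/-, with medians of 1.28, 1.34 and 1.73 beside -0.0035, -0.018 and -0.012 over all genes. Of all genes 11.9%, 7.87% and 14.9% were called higher in these 3 comparisons. Pdk4, which holds back glucose oxidation, rose most, at 3.83 (SE 0.47, adjusted p = 4.2e-04) in Cpt2L-/-. Angptl4, another target of Ppara, was at -0.43 in the same comparison. Pdk4 was the gene of this list that the interaction called, at 3.01 (SE 0.54, adjusted p = 0.00677). Of 10 Atf4 target genes tested, 4 higher and 1 lower were called in Cpt2L-/- and 3 higher and 1 lower in DKO against ff;ff, beside 23.8% and 16.1% of all genes in either direction, with medians of 0.33 and 0.91. Psat1, a serine synthesis enzyme, rose most at 4.70 (SE 0.44, adjusted p = 1.2e-05), from 1 to 7 counts a library in ff;ff. Cth, which makes cysteine, was lower, at -3.09 (SE 0.28, adjusted p = 1.2e-05). DKO against Rab30L-/- called 2 higher and 1 lower of this list, with 10 genes tested, beside 30.7% of all genes.

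Among 20 other liver-secreted proteins, 2 higher and 9 lower were called in Cpt2L-/-, where 23.8% of all genes were, with a median of -0.85. Gpnmb, a membrane glycoprotein that is shed in part and is also made by macrophages, rose most at 6.01 (SE 0.34, adjusted p = 3.0e-07). It rose from 1 to 12 counts a library in ff;ff. In DKO the counts were 1 higher and 6 lower against ff;ff and 1 higher and 8 lower against Rab30L-/-, beside 16.1% and 30.7% of all genes. In DKO against Cpt2L-/- the counts were 2 higher and 0 lower, beside 2.71% of all genes, and Hamp, the gene of the iron hormone hepcidin, was among the genes called, at 0.87 (SE 0.20, adjusted p = 0.0426). Over all 7 lists edgeR called 0 genes in Rab30KO against Rab30 Ctrl, where 2 of 85 had an unadjusted p under 0.05, and 0 in Rab30L-/- against ff;ff, where 13 of 85 had. At that threshold 2.21% and 11.2% of all genes passed in these comparisons. No other tool was run on the lists.

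**Figure D5:**
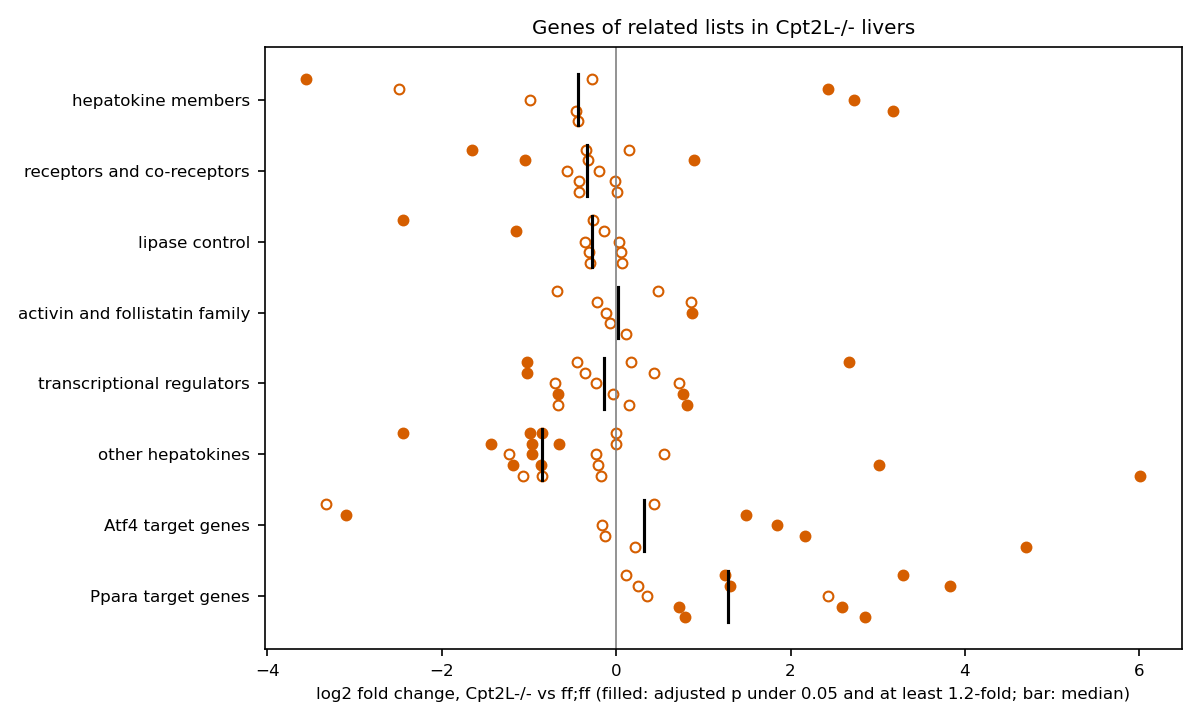
Log2 fold changes in Cpt2L-/- against ff;ff for the 9 hepatokines and for the tested genes of 7 related lists; each point is 1 gene, filled where it was called, and each bar is a median. The Ppara target genes lie to the right of 0, most other hepatokines to the left, and the 9 members on both sides.

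The genes whose levels over the 24 livers were most like those of each member were listed by Pearson's r of log2(CPM + 0.5) among 11600 protein-coding genes with a mean of at least 1 CPM. These are descriptions, and the 24 points share the differences between genotypes. For Fgf21 they were Plin2 (0.94), Zfp9 (0.93) and Slc35f2 (0.93), where Plin2 encodes the coat protein of lipid droplets. For Gdf15 they were Cidec (0.94), Golga4 (0.94) and Wsb2 (0.93), where Cidec encodes another lipid droplet protein. For Inhbe they included Lamb3 (0.91) and Flot1 (0.90), where Lamb3 encodes a laminin chain. For Enho they were Slc3a1 (0.95), Smarcd2 (0.93) and Lmnb1 (0.93), where Slc3a1 encodes an amino acid transporter subunit. For Lect2 they were Rgn (0.91), Polr3k (0.90) and Tert (0.88), and for Angptl8 Mpst (0.86), Ocel1 (0.85) and Map2k3 (0.85). The nearest genes were less alike for Angptl6, Col16a1 (0.84), Qpctl (0.81) and Pcolce (0.81), for Angptl4, Gadd45b (0.82), Zfp410 (0.79) and Sez6l2 (0.79), and for Fst, Clk3 (0.74), Slc38a2 (0.73) and Slc25a25 (0.73).

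No marker of another cell type was called higher in any of the 6 pairwise comparisons by edgeR. Of 5 stellate cell markers 0 were called in Cpt2L-/- against ff;ff, with 1 at an unadjusted p under 0.05 beside 35.7% of all genes, and their sums were 231 to 259 CPM in Cpt2L-/- and 132 to 243 CPM in ff;ff. Kupffer cell markers summed to 105 to 159 CPM in Cpt2L-/- and 129 to 244 CPM in ff;ff, with 3 of 6 called lower. Of the other markers, 2 of 5 hepatocyte markers (Alb and Ttr), 1 of 5 endothelial markers (Clec4g) and 1 of 4 bile duct markers (Sox9) were called lower in Cpt2L-/-. Of all genes, 11.9% were called lower in Cpt2L-/- against ff;ff. Lymphocyte markers were too low to be tested there. Adipocyte markers were at or near 0, with summed levels of at most 3.61 CPM in any library.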

How the data were processed

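RNA from 24 livers was sequenced by Novogene. The files deposited by the authors hold unnormalized read counts for each gene and FPKM, made per the labels with HISAT2 and GRCm38 (mm10). The counter, the strand setting and the FPKM formula are not given in the sources used here. A table of normalized counts and 5 tables of the authors' own fold changes and p-values were not used. Genotypes came from the labels. CPM used TMM over all libraries. Each comparison was fitted to its own 8 libraries (16 for the interaction) with edgeR 4.0.16 in R 4.3.3 (filterByExpr, TMM, glmQLFit with robust estimation, glmQLFTest). Adjusted p-values are Benjamini-Hochberg over all genes, and the SE is the log2 fold change over the square root of F. The replicate livers are separate animals, and their 36 within-group pairs differed by more than counting noise (chi-square per degree of freedom 13.4 or more). The fits were also run on simulated counts with some genes changed, and the outcome is not reported here. Alternatives were DESeq2 1.42.0 size factors or Wald test, limma 3.58.1 voom with sample quality weights, all 24 libraries in 1 fit, other count filters, no fold threshold, and each library left out. Named were all members, Rab30, Cpt2, each list's largest called rise and fall in Cpt2L-/-, a few receptors, partners and regulators, and the 3 genes most alike each member. Promoters were read from RefSeq (GRCm38.p6) and overlaps from GENCODE M21, whose coordinates matched 53462 of 54532 genes. The members and lists were chosen with earlier results of these data known. Further list genes in counts of 5 or fewer were named after their values were seen. The lowest member count was 8. Some list genes that the rule would name are not reported here.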

Additional observations from a re-analysis of the deposited data

Results flagged for a closer look

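In 3 of the 54 sets of 4 libraries (9 genes in 6 genotypes), 1 library lay apart from the other 3 on the log2 CPM scale, where chance alone gives about 1 set in 20. Gdf15 in ff;ff replicate 1 was at 0.699 CPM against 6.62, 7.30 and 7.45 CPM, a gap of 0.942 of the range of its group. Angptl6 in Rab30KO replicate 4 was at 3.49 CPM against 9.14, 10.01 and 10.1 CPM, a gap of 0.902 of the range. Fst in DKO replicate 4 was at 2.35 CPM against 7.89, 8.13 and 9.10 CPM, a gap of 0.889 of the range. Without ff;ff replicate 1, Gdf15 had a log2 fold change of 2.83 (adjusted p = 8.3e-05) in Cpt2L-/- against ff;ff, and of 2.75 (adjusted p = 1.2e-04) in DKO against ff;ff. Without Rab30KO replicate 4, Angptl6 had -0.12 (adjusted p = 0.9998) in Rab30KO against Rab30 Ctrl.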

How the results depend on the processing

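Of 949 recomputed member fold changes, 864 kept direction and side of the thresholds, 20 lost and 32 gained a call, and 33 changed sign, none of them called. The calls of Fgf21, Gdf15, Inhbe and Enho in Cpt2L-/- against ff;ff held under every alternative run, except that at least 10 counts in every library left Gdf15 untested. With no member called in the edgeR fit, 1 member (Angptl4) was called in Rab30L-/- against ff;ff by DESeq2's Wald test, by limma-voom and without a filter on low counts. Over all genes the Wald test called 298 of 13367, limma-voom 182 of 13367 and no filter 240 of 25993, beside 64 of 13367 in the edgeR fit. In DKO against Cpt2L-/- the Wald test and no filter each called 2 (Inhbe and Lect2) and limma-voom 1 (Inhbe), with 0 to 2 as libraries were left out. Over all genes the Wald test called 1032 of 13306, no filter 705 of 25268 and limma-voom 1176 of 13306, beside 360 of 13306 in the edgeR fit. In the interaction the Wald test and limma-voom each called 1 (Angptl4), with 0 to 1 as libraries were left out. They called 1080 and 1026 of all 14063 genes, beside 571 in the edgeR fit. Signs changed under limma-voom for Inhbe (-0.030) and Lect2 (-0.066) in Rab30KO, for Fgf21 in DKO against Cpt2L-/- (-0.20) and for Fst in DKO against Rab30L-/- (0.36). Angptl4 in DKO against Cpt2L-/- turned to 0.00261 with DESeq2's size factors and 0.00258 in its Wald test. With libraries left out, log2 fold changes that crossed 0 ranged in Rab30KO over Fgf21 -0.10 to 0.68, Angptl4 -0.068 to 0.25, Angptl6 -0.59 to 0.20, Inhbe -0.23 to 0.26 and Lect2 -0.28 to 0.28, in Rab30L-/- over Fgf21 -0.81 to 0.32, in DKO against Cpt2L-/- over Fgf21 -0.18 to 0.26, Gdf15 -0.28 to 0.15, Angptl4 -0.13 to 0.050 and Angptl6 -0.23 to 0.064, in DKO against Rab30L-/- over Fst -0.31 to 0.74, and in the interaction over Fgf21 -0.27 to 0.87 and Enho -0.58 to 0.10. No filter took the calls of Fgf21 in DKO against ff;ff (adjusted p = 0.058) and Inhbe in DKO against Rab30L-/- (adjusted p = 0.153), and the fit over 24 libraries took those of Inhbe (adjusted p = 0.0772) and Angptl6 (adjusted p = 0.207) in the latter. Over the whole table, genes called ran from 0 (at least 10 counts) to 10 (the Wald test) about the 3 of edgeR in Rab30KO, from 23 (without Rab30L-/- replicate 4) to 298 (the Wald test) about the 64 of edgeR in Rab30L-/-, from 1485 (without DKO replicate 1) to 3428 (limma-voom) about the 2157 of edgeR in DKO against ff;ff, from 57 (without Cpt2L-/- replicate 4) to 1176 (limma-voom) about the 360 of edgeR in DKO against Cpt2L-/- and from 300 (without Cpt2L-/- replicate 4) to 1080 (the Wald test) about the 571 of edgeR in the interaction. The causes were not tested. No paired analysis was possible because the labels give no pairing of animals between groups.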
